A study of Mus musculus with 6 samples.

Results

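Group 2 innate lymphoid cells (ILC2) were picked out of CD45-sorted mouse colon cells by the genes detected in each cell barcode, and 318 of the 31304 barcodes that passed the quality limits (1.02%) met the rule. A barcode counted as ILC2 when it held at least 200 genes and at most 10% of its UMIs (unique molecular identifiers, each standing for 1 captured mRNA molecule) from mitochondrial genes. It also had no UMI of Cd3d, Cd3e or Cd3g, at most 1 UMI of Lyz2 and none of Epcam. Of the 6 genes Gata3, Il1rl1, Il17rb, Hs3st1, Areg and Il13, at least 2 had to be detected, 1 of them Gata3 or Il1rl1. The levels of these 6 genes chose the cells and are given below as a description only.

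ILC2 are tissue lymphocytes that carry no rearranged antigen receptor. They respond to alarmins released by damaged epithelium, mainly interleukin-33 through the ST2 receptor (Il1rl1) and interleukin-25 through the receptor chain Il17rb, and they depend on the transcription factors GATA3 and RORα. Their best known products are interleukin-5 and interleukin-13, which recruit eosinophils and act on goblet cells, and amphiregulin (Areg), a growth factor for epithelium. Mast cells and basophils also carry ST2 and can make interleukin-4 and interleukin-13, so that Il1rl1 alone does not define an ILC2.

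The cells came from wild-type mice in 6 groups with 1 library each. Pseudo germ-free (pGF) mice had antibiotics for 4 weeks and were taken at day 0, or after 2 or 7 more days on which antibiotics went on together with dextran sodium sulfate (DSS), a polymer that injures the colon epithelium and is used to model colitis. Specific pathogen free (SPF) mice had no antibiotics and were taken at day 0 (the control) and after 2 or 7 days of DSS. The labels give no number of animals per library, nor their age or sex. Epithelium was removed from colon pieces with EDTA, the tissue was then broken up with DNase I and Liberase TL, and CD45-positive cells were sorted, and the RNA of single cells was counted with a 10x Genomics 5′ kit.

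With 1 library per group no difference between groups could be tested, and every comparison is between libraries. The intervals given are exact 95% intervals (Clopper-Pearson for shares) that cover counting error only, and limits for a count of 0 use a floor of 3 counts. The libraries held 23335071 to 52772901 UMIs each, and 6.41% to 61.1% of their barcodes exceeded the mitochondrial limit, most in SPF day 2. The ILC2 barcodes had a median of 6232.5, 2769.5 and 2541 UMIs in pGF at days 0, 2 and 7, and of 5590, 2731 and 2924 UMIs in SPF at the same days. The shares of cells with a UMI were therefore also taken after each cell was thinned at random to 1000 UMIs. Cells with fewer than 1000 UMIs were left out of these thinned shares. Between libraries, 870 barcode sequences occurred more than once, 5 to 131 for any pair. The sequences of 12 ILC2 barcodes were also found in another library, and none marked an ILC2 in more than 1.

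Genes that the rule did not use were compared with the label first. Rora, the gene of RORα, was detected in 70.4% of the 318 barcodes, Id2, a factor common to innate lymphocytes, in 70.1%, and Il7r, the interleukin-7 receptor, in 67.0%. Klrg1, an inhibitory receptor of mature ILC2, was found in 44.7%, Thy1 in 49.7% and Il2ra in 55.0%. Among 1532 B-lineage barcodes, which should lack these genes, the shares were 1.37% for Rora, 4.37% for Id2, 1.31% for Il7r, 0.131% for Klrg1, 0.457% for Thy1 and 0.653% for Il2ra. The B-lineage barcodes had medians of 2093 to 25208 UMIs per library. After thinning to 1000 UMIs, Rora was found in 12.5% to 58.6% of ILC2 barcodes and in 0% to 1.54% of B-lineage barcodes over the 6 libraries. Il7r was found in 25% to 45% of the thinned ILC2 barcodes and in 0% to 2.24% of the thinned B-lineage barcodes.

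The nearest other cells differed in part. In 356 barcodes like natural killer cells or group 1 innate lymphoid cells, Rora was found in 19.4%, Klrg1 in 8.43%, Il2ra in 5.62% and Il5 in 0%, while Id2 reached 66.0%. Those cells were chosen by at least 2 of the 5 genes Ncr1, Klrb1c, Eomes, Klre1 and Tbx21, outside the ILC2 rule. Ncr1, the natural cytotoxicity receptor NKp46, thus helped to choose them, and its shares are a description only. It was found in 66.6% of those cells and in 2.20% (7 cells) of the ILC2. In 204 barcodes with CD3 transcripts and the same marker genes, the profile was close to that of the ILC2. Rora was found in 67.2% of those CD3-positive cells, Il7r in 61.8%, Klrg1 in 35.8% and Il5 in 12.3%, against 20.8% for Il5 in the ILC2. The regulatory T cell factor Foxp3 was found in 9.80% of the CD3-positive cells and in 1 ILC2 (0.314%).

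Antigen receptor transcripts set a limit on the label. Trac, the constant region of the T cell receptor α chain, was found in 3 ILC2 (0.943%), against 34.8% of the CD3-positive cells with the same markers. The β chain constant regions Trbc1 or Trbc2 were found in 207 ILC2 (65.1%), and γ chain constant regions in 107 (33.6%). Trbc1 alone was found in 64.0% of the cells like natural killer cells and in 0.392% of B-lineage cells. Transcripts of the β locus without the α chain were thus common in the ILC2, and counts per gene do not show whether a locus was rearranged. Ptgdr2 (CRTH2), a prostaglandin receptor used to sort ILC2, had no UMI in any of the 318 cells, and the floor of 3 counts limits the share of cells with a UMI to 0.943%, not the share expressing the gene. Nmur1, the neuromedin U receptor, was found in 30 of them (9.43%).

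**Figure D1:**
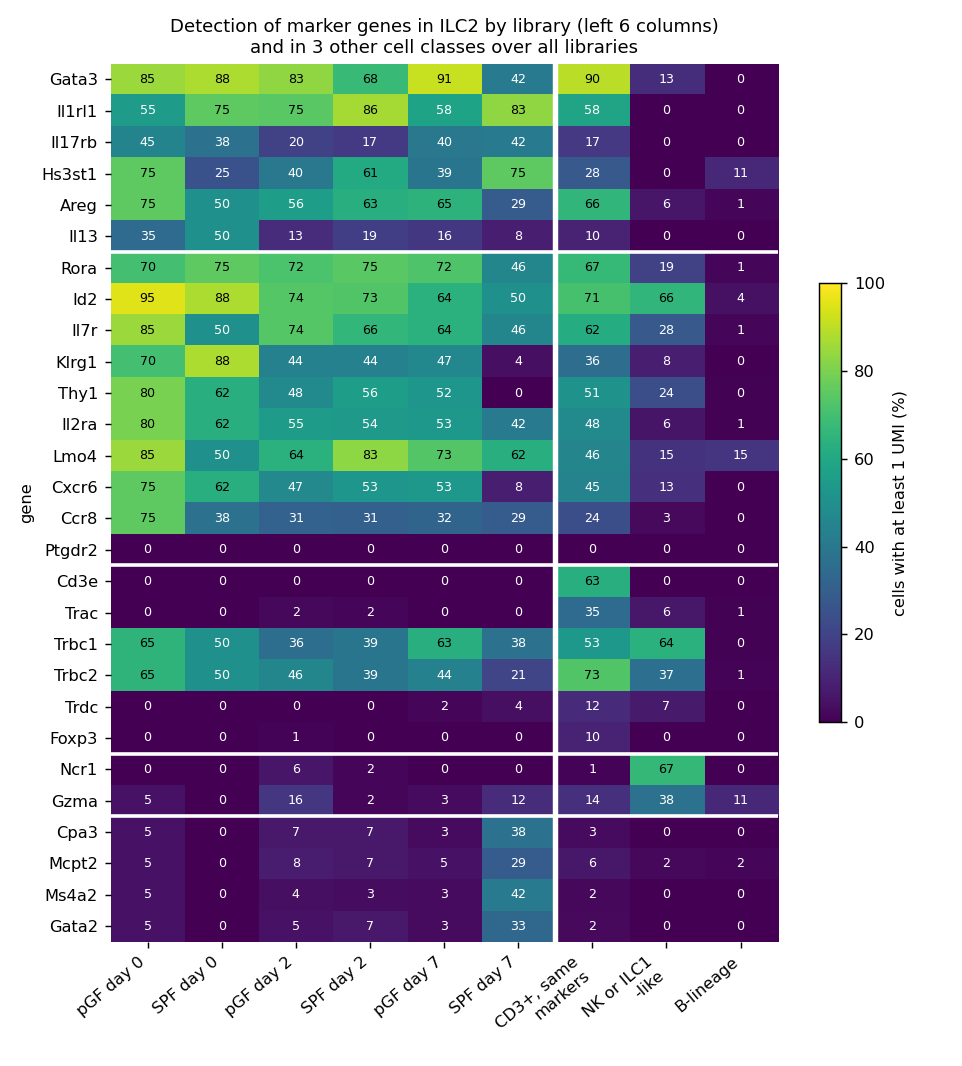
Share of barcodes with at least 1 UMI of each gene (percent, colour and printed values), for the ILC2 of the 6 libraries and for CD3-positive cells with the same markers, cells like natural killer cells or group 1 innate lymphoid cells, and B-lineage cells. Rora, Il7r, Klrg1 and Thy1 were found in most ILC2 columns and in few B-lineage cells. The SPF day 7 column lacks Thy1.

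The limits of the rule were looked at from both sides. The 194 ILC2 with 3 or more of the 6 genes had Il7r in 70.1%, Klrg1 in 54.6% and Rora in 82.5%. The 124 with exactly 2 of the genes had Il7r in 62.1%, Klrg1 in 29.0% and Rora in 51.6%. Just outside, 196 barcodes with 1 gene only had Il7r in 26.0%, Klrg1 in 5.61% and Rora in 18.9%. Another 52 barcodes missed the rule by a single CD3 UMI, and they had Il7r in 63.5%, Klrg1 in 48.1%, Rora in 78.8% and Trac in 7.69%.

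Some ILC2 barcodes carried genes of a second cell type, and these were unevenly spread over the libraries. At least 2 mast cell or basophil genes were detected in 1, 7 and 5 ILC2 barcodes of pGF at days 0, 2 and 7, and in 0, 4 and 10 of SPF at the same days, 27 in all. In SPF day 7 that was 10 of 24 barcodes. The summed level of 12 mast cell genes was 7238, 7086 and 2430 CPM (UMIs of a gene per 1e6 UMIs summed over the ILC2 of a library) in pGF days 0, 2 and 7, and 0, 6597 and 35291 CPM in SPF days 0, 2 and 7. In barcodes without marks of any second cell type it was at most 58.6 CPM in every library, which in part follows from leaving out barcodes by these genes. Of 63 ILC2 barcodes with Il1rl1 and without Gata3, 25 carried the mast cell or basophil marks.

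The sort was for CD45, and a UMI of its gene Ptprc was found in 19 of 20, 79 of 102 and 79 of 105 ILC2 of pGF at days 0, 2 and 7, and in 7 of 8, 44 of 59 and 11 of 24 of SPF. Marks other than those of mast cells and basophils were found in SPF day 2, where 5 ILC2 barcodes carried fibroblast genes, 7 carried macrophage or dendritic genes and 4 carried epithelial genes. In pGF day 2, 7 carried genes of natural killer cells and 4 carried epithelial genes. Over all lists of second cell types, 55 of the 318 were marked: 2, 17 and 6 in pGF days 0, 2 and 7, and 1, 18 and 11 in SPF days 0, 2 and 7. The other 263 are called unmarked ILC2 below, and results are also given for them where they bear on a comparison. In SPF day 7 the unmarked ILC2 held 34119 of the 97249 UMIs, so most UMIs behind the levels of all its ILC2 were in marked barcodes. Plasma cell genes were not used as a mark: 2 or more of the 5 listed were found in 15 of 20, 2 of 102 and 24 of 105 ILC2 of pGF at days 0, 2 and 7. In SPF they were found in 6 of 8, 22 of 59 and 3 of 24 at the same days. Neutrophil genes reached a summed 689 CPM in the SPF day 7 ILC2 and 0 to 13.7 CPM in the other 5 libraries. Neutrophil genes were not used as a mark, and they reached 791 CPM in the unmarked SPF day 7 ILC2. Their part in the results was not tested.

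**Figure D2:**
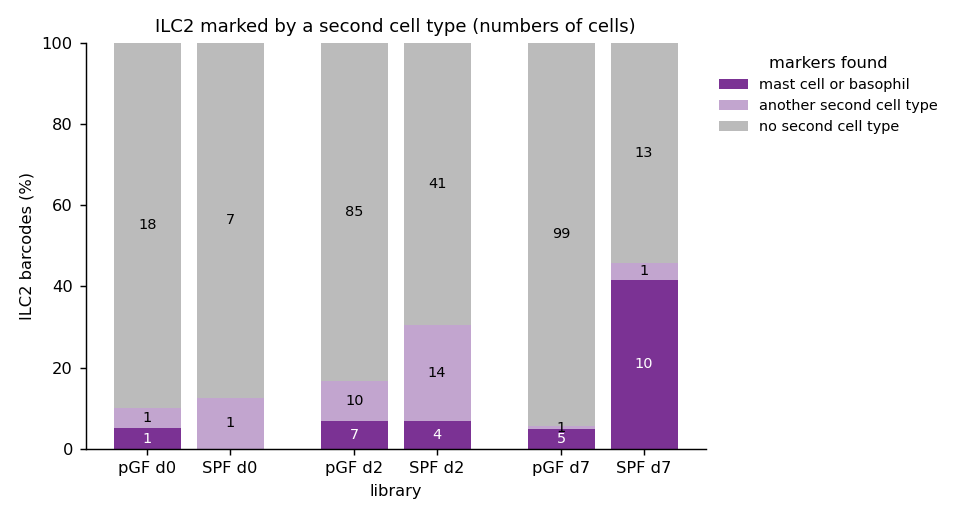
ILC2 barcodes of each library (percent, y axis, with the number of cells printed in each bar), split into barcodes with mast cell or basophil genes (dark), with genes of another second cell type (pale) and with neither (grey). SPF day 7 has the highest share with mast cell or basophil genes, 10 of 24.

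The genes that stood furthest above the rest of the same library in all 6 libraries describe the cells chosen, since the cells were picked by correlated genes. Rora led, with 360 to 1433 CPM in the ILC2 and 9.29 to 57.8 CPM in the rest. Ccr8, a chemokine receptor of type 2 lymphocytes, followed with 113 to 521 CPM in the ILC2 and 0.449 to 2.98 CPM in the rest. Il4 came next with 126 to 627 CPM in the ILC2 and 0.600 to 3.83 CPM in the rest. Then came Ctla2a, Il2ra, Tmem64, Lmo4, Ptpn13, Il9r, the receptor of interleukin-9, and the amino acid transporter Slc7a8. In unmarked ILC2 the same comparison was led by Il2ra, Ccr8, Rora, Il4 and Lmo4, with Il5 in sixth place.

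The ILC2 took a larger share of the kept barcodes in pGF than in SPF at days 0 and 7, and a smaller share at day 2. In pGF they made up 20 of 1280 barcodes at day 0 (1.56%, 0.957% to 2.40%), 102 of 7488 at day 2 (1.36%, 1.11% to 1.65%) and 105 of 6547 at day 7 (1.60%, 1.31% to 1.94%). In SPF they made up 8 of 2359 at day 0 (0.339%, 0.147% to 0.667%), 59 of 2997 at day 2 (1.97%, 1.5% to 2.53%) and 24 of 10633 at day 7 (0.226%, 0.145% to 0.336%). The 3 pGF shares lay within one another's intervals, and the SPF shares were high at day 2 and low at days 0 and 7.

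At day 7 the pGF share was 7.11 times the SPF share (4.53 to 11.6). At day 0 it was 4.61 times the SPF share (1.94 to 12.1), from 20 pGF and 8 SPF cells. At day 2 it was 0.692 times the SPF share (0.497 to 0.970). Within SPF, the day 2 share was 5.81 times that of day 0 (2.76 to 14.1), and the day 7 share was 8.72-fold lower than that of day 2. Within pGF, day 2 over day 0 was 0.872 (0.536 to 1.49) and day 7 over day 2 was 1.18 (0.888 to 1.56).

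A share depends on what else is in the library, and fewer ILC2 cannot be told apart from more of the other cells. Per 100 barcodes with a CD3 UMI there were 8.06, 1.86 and 2.33 ILC2 in pGF at days 0, 2 and 7, and 1.96, 8.45 and 0.495 in SPF at the same days. On that scale pGF day 2 stood at 0.220 of SPF day 2 (0.158 to 0.309), and pGF day 7 at 4.71 times SPF day 7 (3.0 to 7.67). With unmarked ILC2 only, the day 7 ratio was 12.4 (6.91 to 24.0), from 99 pGF and 13 SPF cells, and the day 2 ratio was 0.830 (0.565 to 1.24). With cells that had no UMI of Trac, Trbc1, Trbc2 or Trdc, the day 7 ratio was 3.0 (1.47 to 6.41), from 24 pGF and 13 SPF cells. Constant regions of the γ chain were not used in that choice. Barcodes with at least 1000 UMIs were also thinned to 1000 UMIs before the rule, and barcodes with fewer UMIs were left out. This kept 8433 of the 10633 barcodes of SPF day 7. The shares were then 0.973%, 1.15% and 1.15% in pGF and 0.236%, 1.57% and 0.178% in SPF at days 0, 2 and 7. The pGF share was again above the SPF share at days 0 and 7. At day 2 it was 0.731 of the SPF share (0.499 to 1.08), and 0.949 after thinning to 500 UMIs (0.596 to 1.55), both with intervals that include 1.

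**Figure D3:**
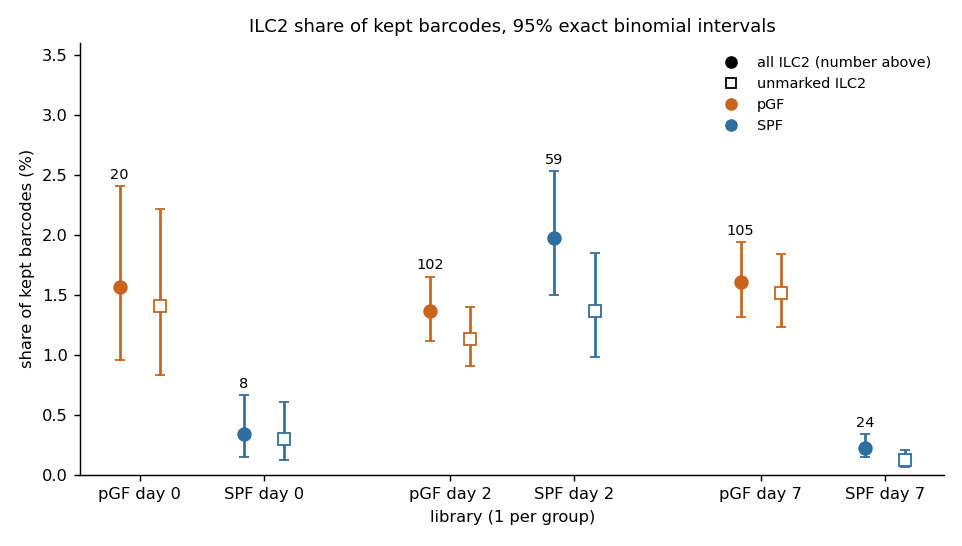
ILC2 as a percent of kept barcodes (y axis) at days 0, 2 and 7 of DSS for pGF (orange) and SPF (blue) libraries, 1 library per point, with exact 95% counting intervals, shown for all ILC2 (filled circles, number of cells above) and for unmarked ILC2 (open squares). The points for all ILC2 lie between 1.36% and 1.60% in pGF, and in SPF at 0.339%, 1.97% and 0.226%.

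The products of ILC2 were detected in cells that overlapped only in part. Interleukin-13 and interleukin-5 transcripts were found together in 20 ILC2 (6.29%), Il13 alone in 34 and Il5 alone in 46, so that 100 cells (31.4%) held either. Areg was found with Il5 or Il13 in 65 cells and without both in 123, and 95 cells held none of the 3 genes. Gata3 and Il1rl1 were found together in 162 cells (50.9%). The rule used Il13, Areg, Gata3 and Il1rl1 to choose the cells, so these overlaps in part follow from the choice and are a description. At day 0 Il5 and Il13 were found together in 7 of 20 pGF and 3 of 8 SPF cells, and at later days in 4 of 102 and 4 of 105 pGF cells and in 2 of 59 and 0 of 24 SPF cells. The day 0 cells had more UMIs each, which raises the chance of finding any gene, and a gene with no UMI in a cell may still be expressed there.

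Il5 stood at 458, 165 and 161 CPM in pGF ILC2 at days 0, 2 and 7, from 11, 16 and 20 cells, against 631, 336 and 30.9 CPM in SPF ILC2, from 3, 15 and 1 cells. Of the 30 Il5 UMIs of SPF day 0, 27 were in 1 cell, and without that cell the level was 75.6 CPM. Il5 was lowest in SPF day 7. Il13, whose product drives mucus secretion, stood at 284, 95.8 and 113 CPM in pGF at days 0, 2 and 7, and at 883, 204 and 20.6 CPM in SPF. Of the 42 Il13 UMIs of SPF day 0, 28 were in the same cell as the 27 Il5 UMIs, and without that cell the level was 353 CPM. The 2 Il13 UMIs of SPF day 7 were in 2 barcodes, both with mast cell or basophil marks. Csf2, which encodes the myeloid growth factor GM-CSF, stood at 1509, 400 and 608 CPM in pGF, and at 252, 958 and 20.6 CPM in SPF. All of these were lowest in SPF day 7, in all ILC2 and in unmarked ILC2.

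Il4 ran otherwise: 182, 627 and 560 CPM in pGF at days 0, 2 and 7, from 7, 28 and 42 cells, against 126, 138 and 257 CPM in SPF, from 4, 11 and 9 cells. Its 2 highest levels were those of the pGF libraries with DSS. Unmarked ILC2 had Il4 at 157, 710 and 579 CPM in pGF and at 160, 173 and 117 CPM in SPF, so that the pGF libraries with DSS were again the highest without mast cell or basophil genes, and SPF day 7 was the lowest. Areg stood at 1928, 1076 and 1223 CPM in pGF and at 336, 1764 and 267 CPM in SPF, with its lowest levels in SPF days 0 and 7. In unmarked SPF day 7 ILC2 Areg stood at 733 CPM, with 18 of its 25 UMIs in 1 cell, and at 224 CPM without that cell. After thinning to 1000 UMIs, Areg was found in 55%, 34.4% and 50% of pGF ILC2 and in 25%, 44.8% and 20.8% of SPF ILC2 at days 0, 2 and 7. In thinned B-lineage cells the share with Areg was 0% to 4.17%.

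Calca encodes calcitonin and, by alternative splicing, the neuropeptide CGRP, which restrains ILC2 in mice; counts per gene do not separate these products. Calca stood at 616, 59.4 and 239 CPM in pGF at days 0, 2 and 7, against 610, 275 and 3712 CPM in SPF. In SPF day 7 it rested on 361 UMIs in 10 of 24 cells, 160 of them in 1 cell and 201 in the other 9, and all 361 were in the 13 unmarked cells. Calca was therefore lowest in pGF day 2 and highest in SPF day 7. A link between Calca and the levels of the other products was not tested. Ramp1, a co-receptor for CGRP, stood at 229, 192 and 133 CPM in pGF and at 210, 86.7 and 20.6 CPM in SPF at days 0, 2 and 7. Ramp3, another co-receptor chain, stood at 316, 185 and 236 CPM in pGF and at 84.1, 229 and 514 CPM in SPF.

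**Figure D4:**
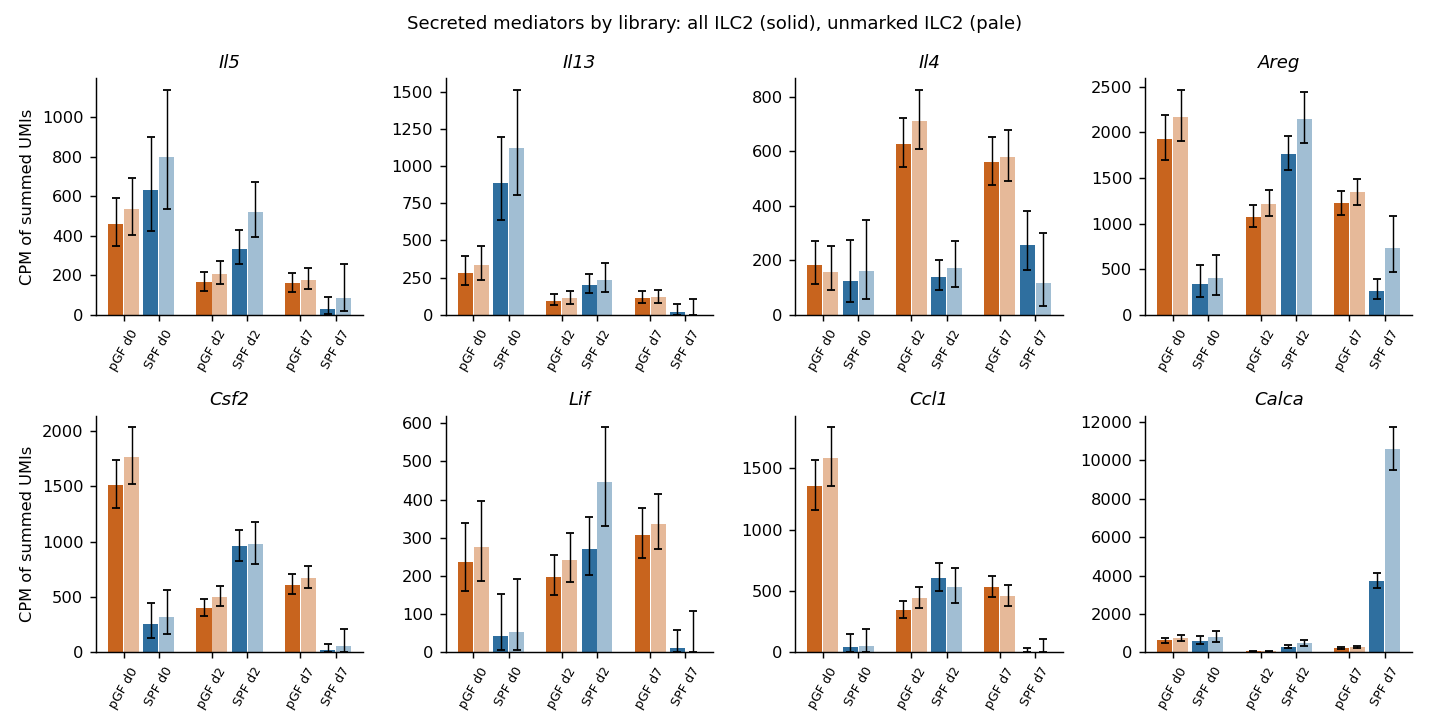
Level of 8 secreted mediators in ILC2 (CPM of summed UMIs, y axis, each panel with its own scale) by library, pGF in orange and SPF in blue, with exact 95% counting intervals; solid bars show all ILC2 and pale ones the unmarked ILC2. Il5, Il13 and Csf2 are lowest in SPF day 7, and Calca is highest there, at 3712 CPM.

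Of the receptors and factors of ILC2, Gata3 and Il1rl1 were used by the rule and are given as a description. Gata3 stood at 838, 710 and 783 CPM in pGF ILC2 at days 0, 2 and 7, and at 715, 862 and 278 CPM in SPF ILC2. Il1rl1 stood at 277, 862 and 581 CPM in pGF, and at 273, 943 and 411 CPM in SPF. Il1rl1 was thus highest at day 2 in pGF and in SPF. Il17rb, the interleukin-25 receptor chain, stood at 182, 109 and 297 CPM in pGF and at 273, 76.5 and 226 CPM in SPF, lowest at day 2 in both. Rora stood at 766, 766 and 851 CPM in pGF and at 378, 1433 and 360 CPM in SPF. In unmarked ILC2 Rora reached 997 CPM in SPF day 7 and Gata3 703 CPM, and Rora there was 2.12-fold lower than in unmarked SPF day 2 ILC2 (1.47 to 3.14). Klrg1 stood at 324, 284 and 297 CPM in pGF and at 336, 240 and 10.3 CPM in SPF, and Thy1 at 348, 287 and 297 CPM in pGF and at 462, 347 and 0 CPM in SPF. These last genes were near the same level in 5 libraries and at or near 0 in SPF day 7.

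Levels of all genes were compared between pairs of libraries with at least 20 ILC2 each, on the scale log2(CPM + 10), which understates changes of low genes. A gene was called higher or lower at a difference of 2-fold or more on that scale with at least 20 CPM in 1 of the libraries. Calls carry no test, and genes near the threshold can pass by counting error alone. Ratios below are of CPM, with counting intervals. The genes furthest in each direction were named only where that interval left out 1, so their intervals were fixed by the choice and measure no support. SPF day 0, with 8 ILC2, entered no such comparison.

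At day 7, more of the measured effector genes were called higher than lower in ILC2 of pGF against those of SPF. Of 28 listed genes of effector cytokines and secreted mediators 23 were measured, 16 of them called higher and 5 lower, and the median difference of the list was 1.63 (log2), or 1.47 with genes at 0 UMIs set to their bound. The list holds Il13 and Areg, both called higher, which the rule used to choose the cells. That limit holds for every count of effector genes below. Over all 7161 genes measured, 11.9% were called higher and 22.5% lower, with a median difference of -0.27. Under trimmed mean scaling (TMM) of the libraries the calls over all genes were 1182 higher and 867 lower, with a median of 0.13, in place of 852 higher and 1612 lower. Csf2 was 29.6-fold higher in pGF day 7 (8.07 to 246), Il5 5.21-fold (1.68 to 26.2), Il13 5.48-fold (1.40 to 47.2), Areg 4.58-fold (3.07 to 7.10) and Il4 2.18-fold (1.43 to 3.47). Ccl1, the ligand of CCR8, had 530 CPM in pGF day 7 and no UMI in SPF day 7, at least 17.2-fold higher by a floor of 3 UMIs. Lif, a cytokine of the interleukin-6 family, was 29.9-fold higher in pGF (5.23 to 1194), and Arg1, the arginine-degrading enzyme of ILC2, 14.3-fold (3.84 to 120).

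The mast cell genes in the SPF day 7 ILC2 bear on these ratios, and without marked barcodes some were smaller. Among unmarked ILC2, 99 in pGF and 13 in SPF, 14 of 24 effector genes were called higher and 5 lower, with a median of 1.30 (0.66 at the bound). Over all genes 21.3% were called higher and 26.2% lower there. Areg was 1.83-fold higher in unmarked pGF cells (1.22 to 2.87), or 5.99-fold (2.88 to 15.0) without the 1 SPF cell that held 18 of the 25 UMIs. Csf2 was 11.5-fold higher (3.13 to 95.6) and Il4 4.94-fold (1.89 to 18.3). Il5 was 2.02-fold higher with an interval that includes 1 (0.651 to 10.2), and Il13 had 121 CPM in pGF and no UMI in SPF (at least 1.38-fold). Ccl1 was at least 5.20-fold and Lif at least 3.83-fold higher, and Arg1 5.48-fold (1.47 to 46.0). The SPF side of each of these rests on 13 cells.

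Single genes of ILC2 identity and residence stood apart at day 7. Of 18 measured identity genes outside the rule, 8 were called higher in pGF day 7 and 3 lower. Their median was 0.47, beside 11.9% higher and 22.5% lower of all genes. In unmarked cells 5 of 17 were called higher and 3 lower, with a median of -0.10, beside 21.3% higher and 26.2% lower of all genes. Thy1 had 297 CPM in pGF day 7, from 55 of 105 cells, and no UMI in the 24 SPF day 7 cells, which by the floor of 3 counts allows up to 12.5% of cells with a UMI, and it was at least 9.64-fold higher (at least 3.70-fold in unmarked cells). Klrg1 was 28.9-fold higher (5.05 to 1155), and 10.8-fold in unmarked cells (1.89 to 433), found in 49 of 105 pGF and 1 of 24 SPF cells. Cxcr6, a receptor for a chemokine of mucosal tissue, was 18.6-fold higher (5.03 to 156), and Hlf stood at 144 CPM in pGF, against 10.3 CPM in SPF. Rora was 2.36-fold higher in all ILC2 and at 0.934 of SPF in unmarked ILC2, and Gata3 was 2.82-fold higher in all and 1.22-fold in unmarked ILC2. Their difference thus moved with the marked barcodes, while that of Thy1, Klrg1 and Cxcr6 was also present without them.

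Of 16 trafficking genes, 7 were called higher and 3 lower in pGF day 7, beside 11.9% higher and 22.5% lower of all genes. Of 13 in unmarked cells 6 were called higher and 3 lower, beside 21.3% and 26.2% of all genes. Ccr2, a receptor for monocyte-attracting chemokines, was 42.5-fold higher (7.50 to 1693), with 437 CPM in pGF and 1 UMI in SPF, and at least 5.03-fold higher in unmarked cells. Cd69, a retention marker, was 2.47-fold higher (1.59 to 4.00), and 9.94-fold in unmarked cells (2.70 to 82.8). After thinning to 1000 UMIs, Ccr2 was found in 26% of pGF day 7 and 0% of SPF day 7 ILC2, and Thy1 in 31% of pGF day 7 and 0% of SPF day 7 ILC2.

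Lower in pGF day 7 were Calca, by 15.5-fold (12.0 to 20.3), and several receptor genes. In unmarked cells Calca was 40.0-fold lower in pGF day 7 (30.9 to 52.4). Of 17 sensors of neuropeptides, lipids and metabolites 4 were called higher and 5 lower, among them Ramp1, 6.48-fold higher (1.68 to 55.4), and Ramp3, at 0.459 of SPF (0.314 to 0.674). Pdcd1, the checkpoint receptor PD-1, was 11.7-fold lower (5.24 to 29.4), and 24.2-fold in unmarked cells, where 8 of the 13 SPF cells held its 25 UMIs. Of the 18 inhibitory and feedback genes as a whole 4 were called higher, Klrg1 and the cytokine signalling inhibitor Cish among them, and 4 lower. Tnfrsf9 (4-1BB), a costimulatory receptor, was 26.1-fold lower (7.99 to 135). Of 22 alarmin and cytokine receptors 4 were called higher and 2 lower. Over all genes 11.9% were called higher and 22.5% lower, and the 4 lower of 18 inhibitory and feedback genes lie near that share. Unmarked cells also had less Ctla2a, 488 CPM in pGF and 6741 CPM in SPF, 13.8-fold lower (11.1 to 17.3), and less Rgs1, a regulator of chemokine signalling, 6.33-fold lower, or 2.86-fold (1.72 to 4.60) without the 1 SPF cell that held 34 of its 58 UMIs. Thinned to 1000 UMIs, Calca was found in 9% of pGF day 7 and 41.7% of SPF day 7 ILC2. Mast cell genes stood further apart in all ILC2: Mcpt4 had no UMI in pGF and 442 CPM in SPF, and Mcpt2 had 605 CPM in pGF and 14674 CPM in SPF.

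Immediate-early genes, which report recent cell stimulation or handling stress, split. In all ILC2, 7 of 21 genes of this list and of heat-shock genes were called higher in pGF day 7 and 5 lower, with a median of 0.15. In unmarked ILC2, 11 of 20 were called higher and 1 lower, with a median of 1.55 (0.98 at the bound). Nr4a1, induced by receptor stimulation, was 2.61-fold higher (2.02 to 3.43), and 7.05-fold in unmarked cells (3.69 to 15.5). Fosb stood at 1920 CPM in pGF day 7 and 329 CPM in SPF day 7. Of 20 interferon-response genes 1 was called higher and 7 lower, with a median of -0.63, but only 0 and 3 had intervals that leave out 1. Of 22 in unmarked cells 2 were called higher and 11 lower, with a median of -0.97, but only 0 and 3 had such intervals. In the 13 unmarked SPF cells 1 UMI of a gene is 29.3 CPM, which alone passes the limit of 20 CPM. Over all genes 11.9% were called higher and 22.5% lower, and in unmarked cells 21.3% and 26.2%. Ifitm1 stood at 458 CPM in pGF, against 5450 CPM in SPF, and Ifitm2 at 95.7 CPM in pGF, against 2314 CPM in SPF. In unmarked cells Ifitm1 had no UMI in pGF or SPF, and Ifitm2 differed by -0.44 (log2). Neutrophil genes, at 13.7 CPM in pGF day 7 and 689 CPM in SPF day 7, moved with this comparison, and their part in it was not tested.

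**Figure D5:**
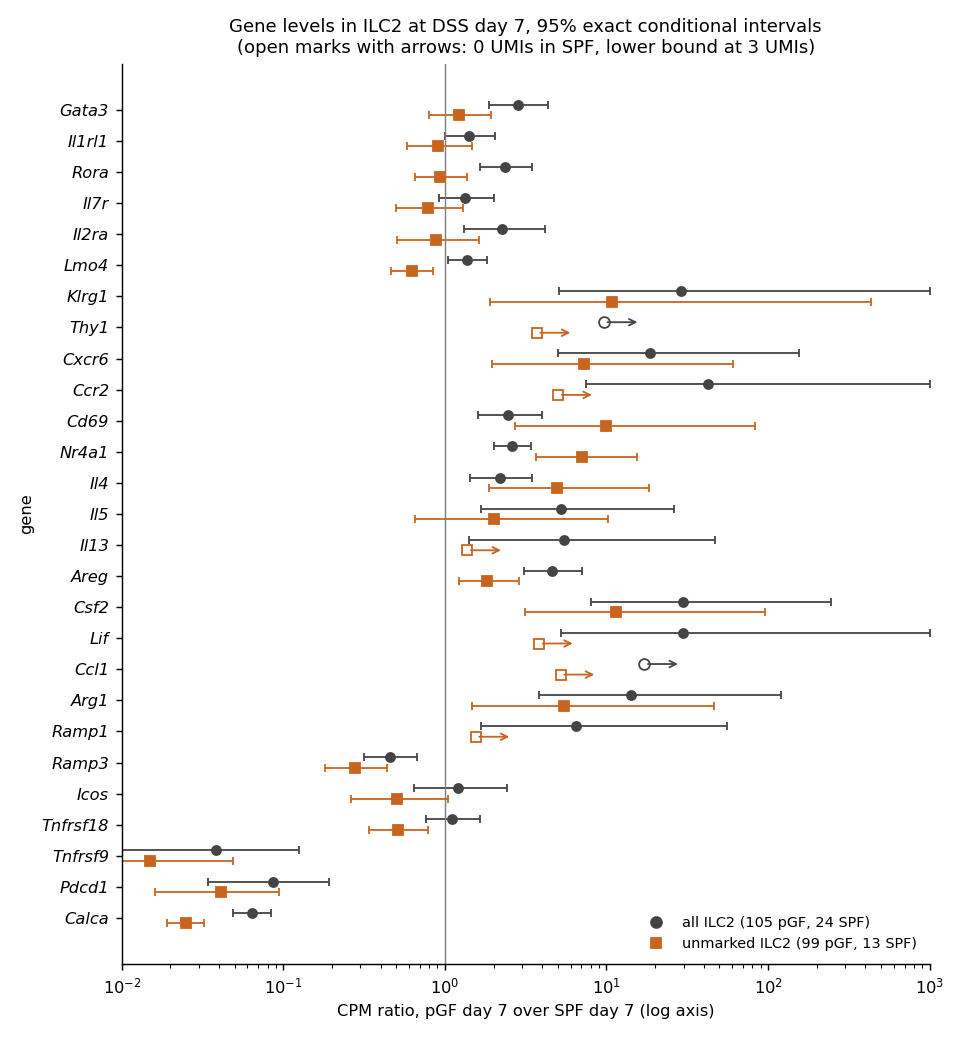
Ratio of CPM in pGF day 7 over SPF day 7 ILC2 (log axis) for named genes, with exact 95% counting intervals cut at the axis ends of 0.01 and 1000, for all ILC2 and for unmarked ILC2. Open marks with arrows are lower bounds for genes with 0 UMIs in SPF, at a floor of 3 UMIs. Csf2, Klrg1 and Ccr2 lie to the right of 1 and Calca, Pdcd1 and Tnfrsf9 to the left.

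Fewer genes were called between pGF and SPF at day 2 than at day 7. The SPF ILC2 held 196142 UMIs at day 2 and 97249 at day 7. With fewer UMIs more genes pass the threshold by counting error, and its part in the difference was not tested. Over 6724 genes 8.4% were called higher in pGF and 12.6% lower, and of 19 identity genes 2 were called higher and none lower. Of 23 effector genes 6 were called higher and 5 lower, with a median of -0.60. Il4 was 4.56-fold higher in pGF day 2 (3.04 to 7.10), and 4.11-fold in unmarked cells (2.55 to 6.99). The other type 2 products were lower: Il13 stood at 0.470 of SPF day 2 (0.281 to 0.777), Il5 at 0.491 (0.333 to 0.719), Csf2 at 0.417 (0.329 to 0.527) and Areg at 0.610. Il4 thus differed between the libraries in the direction opposite to Il5. In unmarked cells Il5 stood at 0.402 of SPF (0.270 to 0.599).

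Calca was 4.63-fold lower in pGF day 2 (2.67 to 8.39), and 8.72-fold in unmarked cells (4.68 to 17.5), the same direction as at day 7. Ramp1 was 2.21-fold higher (1.27 to 4.05). Tnf was 19.4-fold higher (3.23 to 793), and Chka, a kinase of phospholipid synthesis, 12.6-fold (3.27 to 108). Of the 39 Chka UMIs of pGF day 2, 24 were in 1 cell, and without it the ratio was 4.88 (1.14 to 44.0). Pdk1, which shunts pyruvate away from mitochondria, was 7.45-fold higher (1.84 to 65.2). The chemokine gene Xcl1 was 9.89-fold higher in all ILC2 (5.39 to 20.2), but 2.98-fold in unmarked cells (0.675 to 27.2), and 7 of the 102 pGF day 2 barcodes carried genes of natural killer cells. Of 9 measured genes of group 1 and group 3 innate lymphoid cells 5 were called higher and 2 lower, and in unmarked cells 1 of 3 was. Over all genes of unmarked cells 14.7% were called higher and 9.06% lower, and of 21 effector genes 5 were higher and 5 lower. In unmarked cells the triglyceride-forming enzyme Dgat1 stood at 0.324 of SPF (0.239 to 0.435), the chemokine gene Cxcl2 at 489 CPM in pGF, against 1530 CPM in SPF, and Rora at 0.413 (0.341 to 0.500). In all ILC2, Rora stood at 0.535 of SPF.

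The genes furthest below SPF at day 2 differed less in unmarked cells, where few or no UMIs of them were left. Sparc, a matrix protein of fibroblasts, had no UMI in pGF and 515 CPM in SPF, and Col4a1 had none in pGF and 214 CPM in SPF, each from 6 of 59 cells. In unmarked cells Sparc differed by -1.50 (log2), from few UMIs in SPF and none in pGF. Igfbp7 had 1 UMI in pGF and 387 CPM in SPF. In unmarked cells its log2 difference was 0.50, which came from 1 UMI in pGF and none in SPF and shows no direction. Fibroblast genes summed to 3.30 CPM in pGF day 2 and 2355 CPM in SPF day 2, and to 4.18 CPM in unmarked pGF cells and 0 CPM in unmarked SPF cells. These genes are themselves a mark, so their loss from unmarked SPF cells follows in part from the marking.

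Within pGF, the day 2 and day 7 ILC2 differed from those of day 0 in the type 2 products and in proliferation genes. At day 2 over day 0, Il4 was 3.45-fold higher (2.23 to 5.58), Il1rl1 3.12-fold (2.18 to 4.57) and Ccr2 2.73-fold (1.77 to 4.39). Lower at day 2 were Calca by 10.4-fold (6.15 to 18.4), Ccl1 by 3.90-fold (3.04 to 5.02), Csf2 by 3.78-fold (2.99 to 4.78), Ccr8 by 3.22-fold (2.19 to 4.76), Il13 by 2.97-fold and Il5 by 2.78-fold (1.87 to 4.14). Of the 171 Ccl1 UMIs of pGF day 0, 70 were in 1 cell, and without it Ccl1 was 2.44-fold lower at day 2 and 1.60-fold lower at day 7. Over all 6245 genes 13.1% were called higher and 10.1% lower, and of 21 effector genes 4 were called higher and 7 lower. The effector counts were the same in unmarked ILC2, where 14.4% of all genes were called higher and 11.2% lower.

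At day 7 over day 0 the same comparison gave Il4 3.08-fold higher (1.99 to 5.00), and Il5 2.85-fold, Ccl1 2.55-fold and Csf2 2.48-fold lower. Of 22 effector genes 3 were called higher and 7 lower, and in unmarked ILC2 2 of 19 were called higher and 8 lower. Over all 6306 genes 10.5% were called higher and 11.8% lower; under TMM 877 were higher and 505 lower, in place of 665 and 741, and the median moved from -0.04 to 0.10. Both comparisons share the day 0 library of 20 cells. Of 16 cell-cycle genes 10 were called lower at day 2 and 13 at day 7, and none higher. Top2a, a topoisomerase of dividing cells, stood at 158 CPM in pGF day 0, but in 3 of 20 cells, and was 9.57-fold lower at day 2 (3.49 to 32.6) and 11.6-fold lower at day 7. Stmn1 was 34.7-fold lower at day 7 (8.80 to 300), with 15 of its 30 day 0 UMIs in 1 cell. In unmarked cells of pGF day 0, 1 cell held 9 of the 10 Top2a UMIs, and 1 held all 12 of Stmn1. In unmarked ILC2, 10 of 16 cell-cycle genes were called lower at day 2 and 11 of 14 at day 7, where 11.4% of all genes were called higher and 11.3% lower.

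The 2 pGF libraries with DSS, which also held the most ILC2, had the fewest genes called of the 6 pairs, with 4.3% of 6120 genes higher at day 7 and 5.88% lower. Heat-shock genes were among them: 7 of 21 immediate-early and heat-shock genes were called lower at day 7 and 1 higher, with a median of -0.48. In unmarked ILC2 7 of 20 were called lower and 1 higher, with 4.48% of all genes higher and 6.64% lower. Dnajb1, a co-chaperone, was 5.24-fold lower at day 7 (3.80 to 7.37) and Hspa1b 4.31-fold (3.44 to 5.45). Hspa1a stood at 23.7, 690 and 178 CPM in pGF at days 0, 2 and 7 and at 63.1, 413 and 10.3 CPM in SPF, so that both day 2 libraries had its highest levels. Calca was 4.02-fold higher at day 7 than at day 2 (2.37 to 7.18) and Il17rb 2.73-fold (1.81 to 4.21). The lipid droplet gene Plin2 was 9.66-fold lower (2.35 to 85.3). Of 22 effector genes 2 were called higher at day 7 and 4 lower, and in unmarked ILC2 1 of 21 was higher and 3 lower.

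Within SPF, ILC2 of day 7 held less of most effector genes than those of day 2. Of 22 measured effector genes 13 were called lower and 5 higher, with a median of -2.03, against 17.4% lower and 23.8% higher of 7613 genes over all, whose median was 0.20 (under TMM -0.11, with 965 genes higher and 1495 lower in place of 1815 and 1327). Il13 and Areg, which the rule used to choose the cells, are among the lower effector genes here and in unmarked ILC2. Ccl1 had no UMI at day 7 and 607 CPM at day 2, at least 19.7-fold lower, and Ccr2 was 43.6-fold lower (7.63 to 1740). Thy1 had no UMI at day 7, at least 11.2-fold lower (at least 6.21-fold in unmarked cells). Calca was 13.5-fold higher at day 7 (10.1 to 18.3) and Pdcd1 31.3-fold (7.95 to 270), and in unmarked cells Calca was 22.3-fold (16.7 to 30.5). Ctla2a was 10.6-fold higher at day 7 in unmarked cells (8.06 to 14.0). In unmarked ILC2, 12 of 22 effector genes were called lower and 5 higher, and 15 of 19 immediate-early and heat-shock genes lower and none higher, with 33.4% of all genes called higher and 21.9% lower. Of 18 identity genes 8 were called lower and 2 higher in all ILC2, and of 19 trafficking genes 10 were lower and 4 higher. In unmarked ILC2 8 of 17 identity genes were lower and 3 higher, and 9 of 14 trafficking genes were lower and 1 higher. This comparison shares the SPF day 7 library, and its mast cell genes, with that of pGF and SPF at day 7.

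In the day 0 libraries the ILC2 of pGF, 20 cells, and of SPF, 8 cells, are given side by side. Ccl1 stood at 1351 CPM in pGF, against 42.0 CPM in SPF, Csf2 at 1509 CPM in pGF, against 252 CPM in SPF, and Areg at 1928 CPM in pGF, against 336 CPM in SPF. Of the 16 Areg UMIs of SPF day 0, 12 were in 1 cell, and without that cell the level was 97.9 CPM. Gata3 stood at 838 CPM in pGF, against 715 CPM in SPF, and Il1rl1 at 277 CPM in pGF, against 273 CPM in SPF. Calca was near equal, at 616 CPM in pGF, against 610 CPM in SPF. Il17f, a cytokine of group 3 innate lymphoid cells, had 1 UMI in pGF day 0 and 35 UMIs in SPF day 0, in 3 of its 8 cells, and none in the other 4 libraries.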

How the data were processed

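Per the file headers, the authors made the deposited matrices with Cell Ranger 6.1.2, and the values are raw UMI counts per gene and barcode held only for barcodes that had passed cell calling. Other names in the submitters' processing notes are mm10, R 4.1.3 and Seurat 4.1.1. The V(D)J part was not used here. Counts of ILC2 barcodes were summed per library and scaled to CPM (Python 3.11.15, numpy 2.4.6, scipy 1.17.1, pandas 2.3.3, scikit-learn 1.9.0, matplotlib 3.10.9). Median depths and totals per library are in the report. The code for ratios and calls was checked on simulated counts with known folds.

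Named genes were the 5 furthest in each direction per comparison with at least 50 CPM, 20 UMIs and 10% of ILC2 in the higher library. Their level there had to be at least that of the other kept barcodes, and their interval had to leave out 1. Genes of the lists were named as well. The members and lists were chosen with earlier results of these data known. Doublets were not removed: barcodes with the highest simulated-doublet scores, at 0.8% per 1000 barcodes, were left out in an alternative, and they held 0, 0 and 1 ILC2 of pGF and 0, 8 and 7 of SPF at days 0, 2 and 7. Alternatives were other quality limits, no T cell receptor UMI, no UMI of 7 genes of other cell types, at least 3 rule genes, thinning, other denominators, pseudocounts and filters, mean CPM per cell, and TMM from edgeR 4.0.16 (R 4.3.3). No T cell receptor UMI here and below means none of Trac, Trbc1, Trbc2 or Trdc, and γ chain genes were not used. Leaving out barcodes marked by mast cells, basophils or another second cell type, allowing 3 Lyz2 UMIs, and leaving out the cell with most UMIs of a gene, were chosen after seeing the data.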

Additional observations from a re-analysis of the deposited data

Results flagged for a closer look

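The ILC2 share differed between pGF and SPF in opposite directions at different days, and this difference between days was not tested, since each group is 1 library. The log2 ratio of the pGF share over the SPF share was 2.83 at day 7 and -0.53 at day 2. It was 2.20 at day 0 and -0.53 at day 2. The SPF day 2 library, with the highest ILC2 share, also had the most barcodes above the mitochondrial limit, 61.1%.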

How the results depend on the processing

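No paired analysis was possible because each group is 1 library, and no library could be left out. Of the recomputed share ratios and gene counts, 165 stayed within counting error or within 1.5 times and 61 moved; of the values of lists and single genes, 1448 stayed, 158 moved and 7 reversed. Log2 ratios of shares were, after thinning to 500 UMIs, 4.05 (pGF over SPF, day 0), 4.24 (pGF over SPF, day 7), -0.68 (pGF, day 7 over 2), 4.41 (SPF, day 2 over 0) and -5.00 (SPF, day 7 over 2). Of barcodes with a Ptprc UMI they were -1.18 (pGF over SPF, day 2) and -4.40 (SPF, day 7 over 2). Per barcode with CD3 they were -2.18 (pGF over SPF, day 2), -2.11 and -1.79 (pGF, days 2 and 7 over 0), -4.09 (SPF, day 7 over 2) and -1.99 (SPF, day 7 over 0). Without T cell receptor UMIs they were 1.58 (pGF over SPF, day 7) and -0.51 (pGF, day 7 over 2). At day 7, pGF over SPF was 3.54 without 7 genes of other cell types, 3.54 without mast cell or basophil marks and 3.63 in unmarked ILC2. With 3 rule genes, pGF day 2 over 0 was -0.93 and day 7 over 2 was 0.75. The cause was not tested.

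Counts of genes called higher and lower, in the order pGF over SPF day 2, pGF over SPF day 7, pGF day 2 over 0, pGF day 7 over 2, pGF day 7 over 0 and SPF day 7 over 2, were with a pseudocount of 50 CPM 43 and 191, 157 and 295, 98 and 70, 13 and 39, 45 and 82, and 314 and 352. With a minimum of 50 CPM they were 230 and 380, 387 and 879, 313 and 255, 71 and 146, 211 and 299, and 898 and 593. With no filter the counts that moved were 1291 lower, 1496 higher, 1236 higher, 445 higher, 1212 higher and 2273 lower in that order of pairs. A stricter filter or larger pseudocount calls fewer genes by construction. With mean CPM per cell, pGF over SPF day 2 gave 883 higher, and pGF day 7 over 2 gave 630 lower. Without T cell receptor UMIs these pairs gave 1158 higher and 1811 lower, and 1244 higher and 1129 lower. Without 7 genes of other cell types pGF over SPF day 2 gave 481 lower. Under TMM, pGF over SPF day 7 gave 867 lower and SPF day 7 over 2 gave 965 higher. In unmarked ILC2, pGF over SPF gave 883 higher and 543 lower at day 2 and 1410 higher at day 7.

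Reversed log2 differences, pGF over SPF at day 2, were Id3 0.26 (without 7 genes of other cell types), Igfbp7 0.50 (unmarked), Xcl1 -1.23 and the list of group 1 and group 3 genes -0.57 (no T cell receptor UMI). The Igfbp7 value came from 1 UMI in pGF and none in SPF. At day 7, Mcpt2, one of the genes used to mark barcodes, was 0.46 (unmarked), from 1 UMI in pGF and none in SPF. For pGF day 7 over 2, Bcl2a1b was 0.64 and that list 0.47 (no T cell receptor UMI). Pairs with pGF day 0 or SPF day 7 were not refitted where under 20 ILC2 were left, and under 10 for unmarked ILC2. The 8 to 24 cells of SPF days 0 and 7 limit every comparison with them.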

Other observations

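Kit, the stem cell factor receptor of mast cells and group 3 innate lymphoid cells, stood at 284, 228 and 202 CPM in pGF ILC2 at days 0, 2 and 7, and at 147, 255 and 802 CPM in SPF ILC2 at the same days. In unmarked ILC2 Kit stood at 322 CPM in SPF day 7. Il9, the cytokine gene of activated ILC2 and mast cells, had 1 UMI in all 318 cells, in pGF day 2. Hilpda, a lipid droplet gene induced by hypoxia, stood at 861, 878 and 834 CPM in pGF and at 252, 586 and 195 CPM in SPF at days 0, 2 and 7.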
